A study of Mus musculus with 36 samples.

Results

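The genes described are 48 interleukins and interleukin receptors among the 750 endogenous genes on the mouse version of the nCounter PanCancer Immune Profiling Panel, in which barcoded probes bound to RNA are counted directly and no amplification step is used. They are all endogenous genes whose symbol starts with Il and a digit, apart from Il1a, Il1b, Il1rn, Il1r1, Il1r2, Il18, Il5, Il6, Il6ra, Il6st and Il11. Of the 48, 22 encode ligands or ligand subunits and 26 encode receptors or receptor subunits. RNA came from 36 tumours grown in the pancreas of wild-type C57BL/6 mice from implanted KPfC BMF-A3 cells, a mouse pancreatic cancer line, so all tumours derive from a single line in hosts with intact immunity. Treatment ran from day 10 to day 35 in 8 arms. The Vehicle arm held 6 tumours. TP-0903, which inhibits the receptor kinase Axl, was given alone by gavage at 25 mg/kg daily (TP-0903, 4 tumours). Gemcitabine, a chemotherapy drug of the nucleoside type, was injected 3 times a week at 25 mg/kg (Gemcitabine, 4 tumours). RMP14-1, an antibody that blocks PD1, was injected 2 times a week at 5 mg/kg (Anti-PD1, 4 tumours). The pairs of agents were given as TP-0903+Gemcitabine in 5 tumours, as Gemcitabine+anti-PD1 in 4 and as TP-0903+anti-PD1 in 4. All agents together, TP-0903+Gemcitabine+anti-PD1, were given in 5 tumours and are called the triple arm here.

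Interleukins are secreted proteins through which leukocytes and tissue cells direct each other's growth, differentiation and movement, and most act at low concentration through receptors assembled from shared chains. Il2rg, the common gamma chain, serves the receptors of Il2, Il4, Il7, Il9, Il15 and Il21. Il4ra serves Il4 and Il13, Il17ra serves several ligands of the IL-17 family, and Il1rap is the accessory chain of several receptors of the IL-1 family. In pancreatic cancer, interleukins are studied as signals among tumour cells, fibroblasts and infiltrating leukocytes.

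Libraries were compared after division by a factor proportional to the geometric mean of 20 housekeeping genes, and the resulting values are called scaled counts. Total counts per tumour ran from 115973 to 552876 and the housekeeping mean from 146 to 540. A gene was taken as above background in a tumour when its raw count exceeded the mean plus 2 SD of that lane's 8 negative controls, a threshold that lay between 8.21 and 26.3 counts. Lanes were run on 3 cartridges, 12 on each. Vehicle and TP-0903 tumours were all on cartridge 1 together with 2 of the Gemcitabine arm, so in the other 5 arms treatment and cartridge cannot be told apart in a comparison with Vehicle. Each sample is a separate tumour, and p-values measure the spread between tumours. Levels are not compared between genes, because each probe has its own efficiency.

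In 2 libraries the tissue went against the label. The library labelled Vehicle replicate 3 held 12336 scaled counts of the lung gene Cxcl15, against 8.59 to 50.5 in the 34 other tumours, and a summed endothelial level of 15126 against 491 to 1400. The library labelled TP-0903 replicate 3 held 40065 scaled counts of H2-Q10, a liver gene, against 15.7 to 445. The epithelial gene Epcam, at 763 to 4455 in the 34 other tumours, was at 397 in the first of these libraries and at 43.2 in the other. Of the 4 listed normal pancreas markers, 2 were on the panel, and their sum was 101 and 37.3 in these libraries, against 8774 to 85783 elsewhere. In Anti-PD1, Pla2g1b, 1 of the 2, was above background in no tumour, though the sum there ran from 10161 to 85783. How much normal pancreas the tumours held was not tested. Where a gene's extreme value lay in 1 of the 2 libraries with lung or liver RNA, its results are given with and without them.

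Receptors were above background far more often than ligands. Among the 26 receptors, 19 were above background in at least 18 of the 36 tumours, compared with 5 of the 22 ligands and 565 of all 750 endogenous genes (75.3%). Of all 750 endogenous genes, 329 were above background in all 36 tumours. Of the 48 genes described, 7 were, all of them receptors, namely Il4ra, Il13ra1, Il3ra, Il17ra, Il1rap, Il10ra and Il22ra1. Between 13 and 32 of the 48 genes were above background in a tumour, with a median of 22. These counts describe probes at this depth, and a gene at background may still have been expressed.

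By family, 4 of the 5 type 2 receptors, 5 of the 6 common gamma chain receptors, 5 of the 6 IL-1 family receptors and both IL-17 receptors were above background in at least 18 tumours. None of the 7 genes of the IL-12 group reached that number. The ligands that did were Il34, an alternative ligand of the macrophage receptor Csf1r, Il16, a chemoattractant for Cd4-bearing cells, Il7 and Il15, which sustain lymphocytes, and Il17b, a ligand of Il17rb. Of the 4 IL-10 family ligands, Il10 and Il22 were above background in 1 tumour each, Il19 in 2 and Il24 in none.

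Of all 750 endogenous genes, 22 were above background in no tumour. These held 8 of the 48 genes, the ligands Il2, Il3, Il4, Il9, Il17f and Il24 and the receptors Il12rb1 and Il23r. A further 9 were above background in 1 to 3 tumours, namely Il10, Il12rb2, Il13ra2, Il17a, Il21 and Il22 in 1, Il19 in 2, and Il12b and Il27 in 3. These 17 genes were not tested. Another 7 genes were above background in 4 to 17 tumours: the type 2 ligand Il13 and the IL-17 family ligand Il25 in 7 each, the Il23 subunit Il23a in 9, the IL-1 receptor relative Il1rapl2 in 12, the soluble Il22-binding protein Il22ra2 in 13, the Il12 subunit Il12a in 16 and the Il2 receptor chain Il2ra in 17. Thus some receptors were above background while a ligand of theirs was not, as with Il4ra and Il3ra, above it in 36 tumours each. Il4 and Il3 were above it in none, while Il13, which Il4ra also serves, was above it in 7.

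Between arms, the number of genes above background in at least 50% of the arm's tumours was 26 in Vehicle, 30 in TP-0903, 27 in Gemcitabine, 25 in Anti-PD1, 20 in TP-0903+Gemcitabine, 25 in TP-0903+anti-PD1, 28 in Gemcitabine+anti-PD1 and 18 in the triple arm. The housekeeping mean ran from 157 to 353 in the triple arm, from 229 to 419 in TP-0903+Gemcitabine and from 146 to 353 in TP-0903+anti-PD1, against 333 to 534 in Vehicle. The median housekeeping mean was 431 in TP-0903, with the most genes, and 245 in the triple arm, with the fewest. It was 257 in TP-0903+anti-PD1, with 25 genes, and 321 in TP-0903+Gemcitabine, with 20. The median threshold after division by the same factor (scaled threshold) was highest in TP-0903+Gemcitabine, at 26.3. It was 17.8 in Vehicle and 19.3 in the triple arm. The part of depth in these numbers was not tested. An arm of 5 tumours cannot be split at exactly 50%, so a gene there had to pass in a larger share of tumours than in an arm of 4 or 6. The arms of 5 were TP-0903+Gemcitabine and the triple arm, which had the lowest numbers. The part of this rule in their numbers was not tested. The number of genes above background was not tested between arms.

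**Figure D1:**
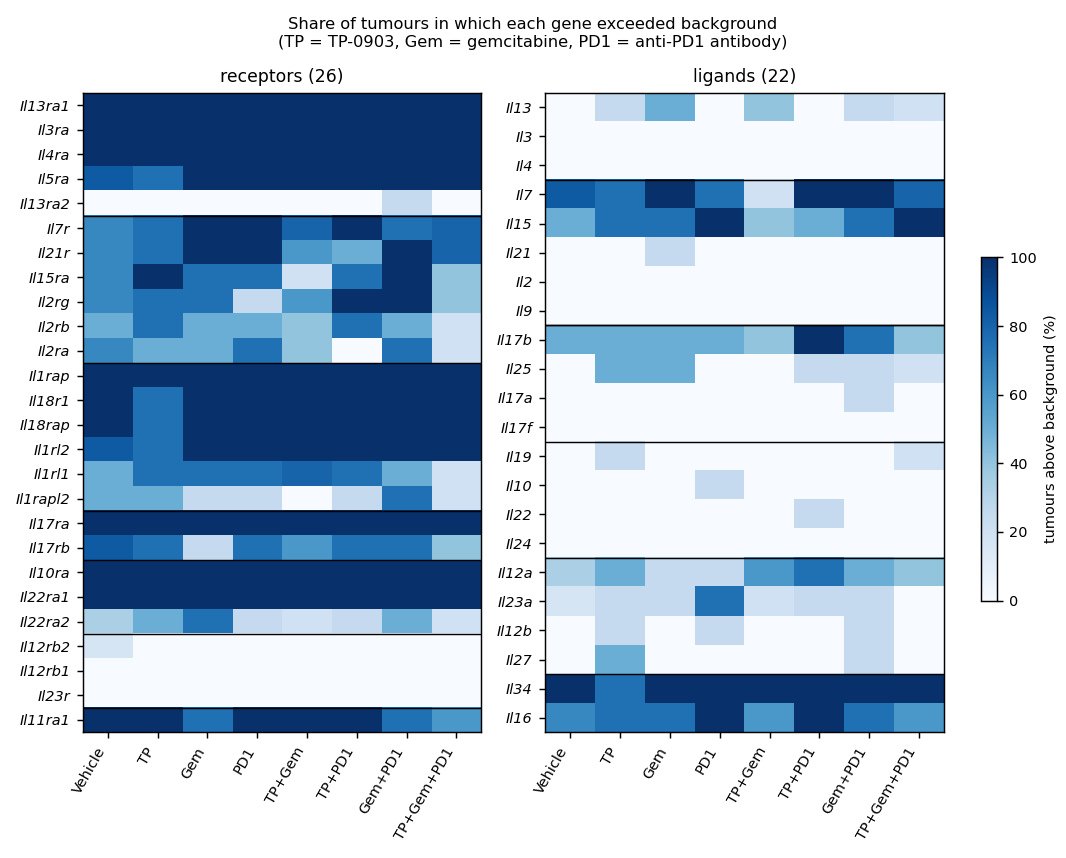
Share of tumours of each arm in which a gene exceeded its lane's background threshold, with receptors on the left and ligands on the right and families separated by lines. Receptors fill most of their panel, and 7 of them are dark in every arm, whereas only Il34 among the ligands is above background in nearly all tumours (35 of 36).

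Among the type 2 receptors, Il4ra, the signalling chain for Il4 and Il13, differed little among Vehicle tumours. Its scaled counts in Vehicle had a lowest value of 398, a median of 420 and a highest of 465. They were 440, 420, 554 and 631 in Anti-PD1 and 250, 353, 417 and 332 in Gemcitabine. In TP-0903 they were 452, 405, 74.7 and 559, the low value being the library with liver RNA. Each of these arms overlapped Vehicle, and no comparison of Il4ra had an unadjusted p under 0.05. Its partner chain Il13ra1 ran from 211 to 1089 over all tumours, highest in the same liver-containing library and next highest, at 893.6, in TP-0903+Gemcitabine replicate 3.

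Il3ra, the specific chain of the Il3 receptor, was lower in Gemcitabine tumours than in every Vehicle tumour. Vehicle values had a lowest of 91.1, a median of 106 and a highest of 112, and the Gemcitabine values were 48.6, 74.7, 72.8 and 85.8. The groups did not overlap. The log2 fold was -0.56 ± 0.18 (SE) with an adjusted p of 0.257, so the difference did not pass the test over all genes. With the 4 Gemcitabine tumours split by cartridge, the 2 that shared cartridge 1 with Vehicle gave -0.76 ± 0.29 (adjusted p = 0.998).

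The other arms with gemcitabine overlapped Vehicle. Il3ra was at 63.6, 114, 109, 94.1 and 87.9 in TP-0903+Gemcitabine, at 97.5, 88.3, 101 and 67.2 in Gemcitabine+anti-PD1 and at 97.4, 123, 89.4, 98.8 and 91.4 in the triple arm. The interaction of TP-0903 and gemcitabine for Il3ra was 0.44 ± 0.18 with an adjusted p of 0.852, so a dependence of the gemcitabine difference on TP-0903 was not shown.

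Il5ra, the receptor by which eosinophils respond to Il5, was between 110 and 1073 scaled counts in 34 tumours. It was below background in the other 2, at 15.8 in Vehicle replicate 3 and 27.5 in TP-0903 replicate 3, the libraries with lung and liver RNA and with the lowest Epcam. Of the 8 listed mast cell and eosinophil markers, 6 were on the panel. Of these, 4 were above background in at least 1 Vehicle tumour, and Prg2 and Ccr3 in none. All 6 were so in Gemcitabine, TP-0903+Gemcitabine, Gemcitabine+anti-PD1 and the triple arm. Ms4a2 was above background in no tumour of TP-0903, Anti-PD1 or TP-0903+anti-PD1, and Ccr3 in none of Anti-PD1. Prg2 reached 138 and Ccr3 53.9 in TP-0903+Gemcitabine replicate 2. The summed level of the 6 was 289 and 212 in the libraries with lung and liver RNA and 74.2 to 328 in the other 34. Across the 36 tumours Birc5 and Myc were among the panel genes with the most similar pattern, with Spearman correlations of 0.641 and 0.631, and these were 0.574 and 0.563 over the 34 tumours. The highest Il5ra value, in Vehicle replicate 6, went with an Epcam of 836. Over the 36 tumours Il5ra had a Spearman correlation of -0.01 with the summed epithelial markers. With the summed mast cell and eosinophil markers it was -0.31. Without the 2 libraries these correlations were -0.19 and -0.21. What share of the Il5ra signal came from eosinophils or from epithelial cells was not tested.

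**Figure D2:**
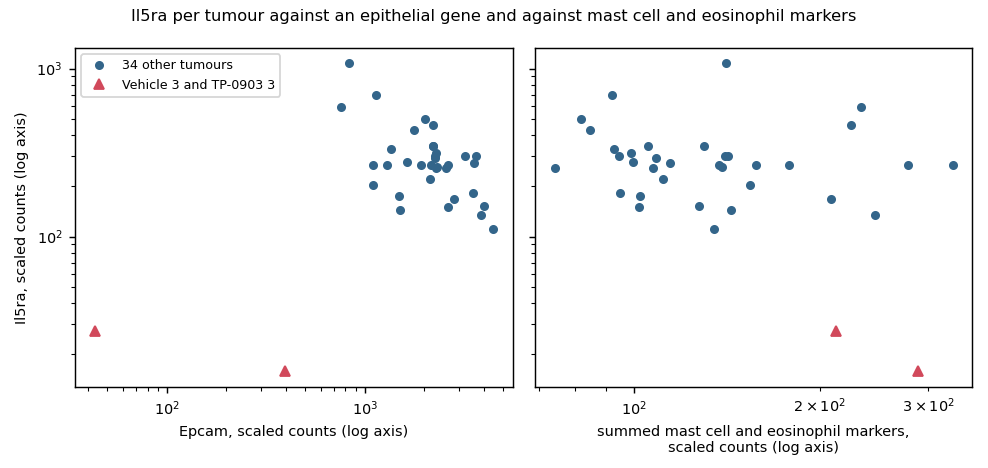
Il5ra scaled counts in each tumour (log axis) against Epcam on the left and against summed mast cell and eosinophil markers on the right, both on log axes in scaled counts. The 2 libraries with lung or liver RNA, at 15.8 and 27.5, lie apart from the 34 others. The highest Il5ra values lie neither at the highest Epcam values nor at the highest marker sums.

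The Vehicle arm spread widely for Il5ra, with a lowest value of 15.8, a median of 293 and a highest of 1073. The Gemcitabine+anti-PD1 values of 151, 166, 110 and 267 lay within that range. The log2 fold was -1.28 ± 0.61 with an adjusted p of 0.459, and -1.53 ± 0.42 with an adjusted p of 0.0811 without the 2 libraries. Without Vehicle replicate 6, which held the value of 1073, it was -0.74. On a log scale after subtraction of background, with all tumours, it was -0.02 ± 1.06. That fit held Vehicle replicate 3, where Il5ra was below background at 15.8, and was not repeated without the 2 libraries.

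Receptors of the common gamma chain family were close to background in many tumours. Il2rg, the shared chain, was above background in 24 tumours and ran from 12.01 to 148. Its highest value was in Vehicle replicate 3, the library with lung RNA, and among the 34 tumours outside the pair of unusual libraries its highest was 69.6. Il2rb, used by Il2 and Il15, was likewise at 144 in Vehicle replicate 3 and at most 52.6 in the other 34 tumours, and Il7r, the Il7 receptor chain, at 117 against at most 49.9. In bulk tumours, fewer cells of a type and less RNA per cell cannot be told apart. Of the 10 T cell markers, 7 were above background in at least 1 Vehicle tumour, 9 in Gemcitabine+anti-PD1 and 4 in Gemcitabine, Cd8b1 was so in no tumour of the 8 arms, and the summed T cell level ran from 84.9 to 326. Its part in the levels of these receptors was not tested.

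Il15ra and Il21r, above background in 24 and 28 tumours, overlapped between all arms. Il2ra, the high-affinity Il2 receptor chain of activated and regulatory T cells, is taken up with the interactions below. The ligand Il15 had values of 25.0, 26.1, 26.5 and 28.5 in Gemcitabine+anti-PD1, all above the 6 Vehicle tumours, whose lowest was 13.4, median 17.7 and highest 24.0. The log2 fold was 0.55 ± 0.23 with an adjusted p of 0.421. It was 0.35 ± 0.23 when libraries were scaled by positive controls. Il15 lay near background, above it in 3 of these 4 tumours, 3 of the 6 Vehicle tumours and 2 of the 5 TP-0903+Gemcitabine tumours. In TP-0903+Gemcitabine, Il15 was at 17.2, 21.0, 46.1, 29.5 and 16.7, overlapping Vehicle, with a log2 fold of 0.50 ± 0.22 and an adjusted p of 0.283, and of 0.21 without replicate 3, which held the value of 46.1. That fold turned to -0.28 ± 0.22 under positive-control scaling.

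Il18r1 and Il18rap encode the binding chain and the accessory chain of the receptor for Il18, an inflammatory cytokine that activates NK and T cells. In the RefSeq annotation (GRCm38.p6), the genes Il1rl2, Il1rl1, Il18r1 and Il18rap neighbour each other in that order on chromosome 1. Il1rl2 is the receptor for Il36 cytokines and Il1rl1 that for Il33. Since Il18r1 and Il18rap are adjacent and varied together between tumours, their RefSeq promoter sequences (250 bases before to 50 after the start, plus strand, GRCm38.p6) follow. They cover chr1:40465302-40465601 for Il18r1, the first of 3 listed starts, and chr1:40515112-40515411 for Il18rap.
Il18r1: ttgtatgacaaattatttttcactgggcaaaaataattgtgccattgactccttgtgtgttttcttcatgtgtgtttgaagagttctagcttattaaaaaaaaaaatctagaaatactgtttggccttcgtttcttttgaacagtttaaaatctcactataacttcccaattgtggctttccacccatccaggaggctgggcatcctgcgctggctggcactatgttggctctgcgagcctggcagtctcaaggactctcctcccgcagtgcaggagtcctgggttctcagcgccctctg
Il18rap: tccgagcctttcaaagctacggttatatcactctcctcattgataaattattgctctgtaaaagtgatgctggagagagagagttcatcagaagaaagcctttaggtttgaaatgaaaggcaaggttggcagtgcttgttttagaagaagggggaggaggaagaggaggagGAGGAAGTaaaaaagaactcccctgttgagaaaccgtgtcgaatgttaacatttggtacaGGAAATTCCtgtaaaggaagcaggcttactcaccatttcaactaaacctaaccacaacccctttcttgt
Capitals mark matches on either strand to 4 motifs that were picked after the sequences had been read, namely TGANTCA (AP-1), TTCNNNGAA (STAT), GAGGAAGT (PU.1) and GGAANTTCC (NF-kB), in which N is any base. The Il18rap window held 1 PU.1 match and 1 NF-kB match, and the Il18r1 window none of the 4. The shares of all 32851 RefSeq mouse promoters of that length with a match were 7.81%, 8.3%, 3.2% and 0.93% in the same order. A match is a description of letters and not a bound site.

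The Il18r1 and Il18rap levels correlated over the 36 tumours with a Pearson r of 0.454 (permutation p = 0.00527, adjusted p = 0.0358 over 276 pairs of genes) and a Spearman rho of 0.629 (permutation p = 4e-05, adjusted p = 0.00158). Without the 2 tumours farthest from the median of Il18r1, r was 0.640, and it was 0.649 without the 2 libraries with lung or liver RNA. Within cartridges 1, 2 and 3, r was 0.245, 0.787 and 0.600. For each of these genes, the other was the panel gene with the most similar pattern. The neighbours Il1rl2 and Il1rl1 had a rho of 0.523, and Il1rl1 and Il18r1 one of 0.420.

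Among the 31 tested genes, Il18r1 had the log2 fold farthest from 0 in TP-0903, Gemcitabine, TP-0903+Gemcitabine and the triple arm against Vehicle, and a single Vehicle library carried much of each difference. The Vehicle values were 51.3, 152, 466, 38.7, 103 and 73.0, with a median of 87.8, and the value of 466 was the library with lung RNA. They were 71.0, 58.8, 29.5 and 50.5 in TP-0903. In the triple arm they were 57.6, 62.3, 47.0, 27.2 and 76.0. Apart from 29.5 and 27.2, which were lower, these treated values lay within the Vehicle range. The log2 folds were -1.47 ± 0.49 for TP-0903 (adjusted p = 0.0901) and -1.44 ± 0.45 for the triple arm (adjusted p = 0.149). Without Vehicle replicate 3 and TP-0903 replicate 3 they were -0.47 ± 0.38 (adjusted p = 0.841) and -0.62 ± 0.33 (adjusted p = 0.612).

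The Gemcitabine, TP-0903+Gemcitabine and Gemcitabine+anti-PD1 arms gave folds of -1.03 ± 0.48, -1.11 ± 0.44 and -1.12 ± 0.48 for Il18r1, with adjusted p-values of 0.515, 0.246 and 0.421. Without the 2 libraries, the folds were -0.22 ± 0.35, -0.30 ± 0.33 and -0.31 ± 0.35 in the same order. These comparisons share the Vehicle tumours and are not independent of each other.

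Il18rap did not depend on the 2 libraries in this way. Its Vehicle values were 38.3, 95.2, 40.0, 41.9, 39.7 and 98.5, and those of TP-0903 were 40.5, 33.1, 37.3 and 33.7. The TP-0903 tumours lay near or below the low end of Vehicle, with overlap. The log2 fold was -0.71 ± 0.30 (adjusted p = 0.261) and -0.81 ± 0.34 (adjusted p = 0.632) without the 2 libraries. Averaged over the 4 backgrounds of the other agents, gemcitabine had a log2 effect of -0.37 ± 0.16 on Il18rap, with an adjusted p of 0.260, and of -0.15 ± 0.29 with cartridge as a block. The 4 values in TP-0903+anti-PD1 were 72.1, 62.6, 74.2 and 62.5, with the highest median of the 8 arms (67.3), and overlapped Vehicle. That difference had no unadjusted p under 0.05.

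Il1rap, the accessory chain for Il1, Il33 and Il36 receptors, was at 129 in Vehicle replicate 3 and at 34.4 to 56.4 in the other 5 Vehicle tumours. In TP-0903+anti-PD1 it was at 50.9, 35.8, 34.4 and 43.3, and in the triple arm at 44.7, 36.3, 47.0, 44.4 and 34.9. Both arms overlapped the Vehicle tumours. The log2 folds were -0.56 ± 0.26 (adjusted p = 0.437) and -0.54 ± 0.24 (adjusted p = 0.361). Without the 2 libraries they were -0.20 ± 0.19 (adjusted p = 0.696) and -0.18 ± 0.18 (adjusted p = 0.785). The TP-0903 arm lay the other way, with Il1rap at 65.7, 59.6, 102 and 71.4, where 102 was the library with liver RNA. These values were above the other 5 Vehicle tumours and below Vehicle replicate 3. Il1rap passed the test in TP-0903 against Vehicle without Vehicle replicate 3 alone, but not with all tumours or without the 2 libraries.

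**Figure D3:**
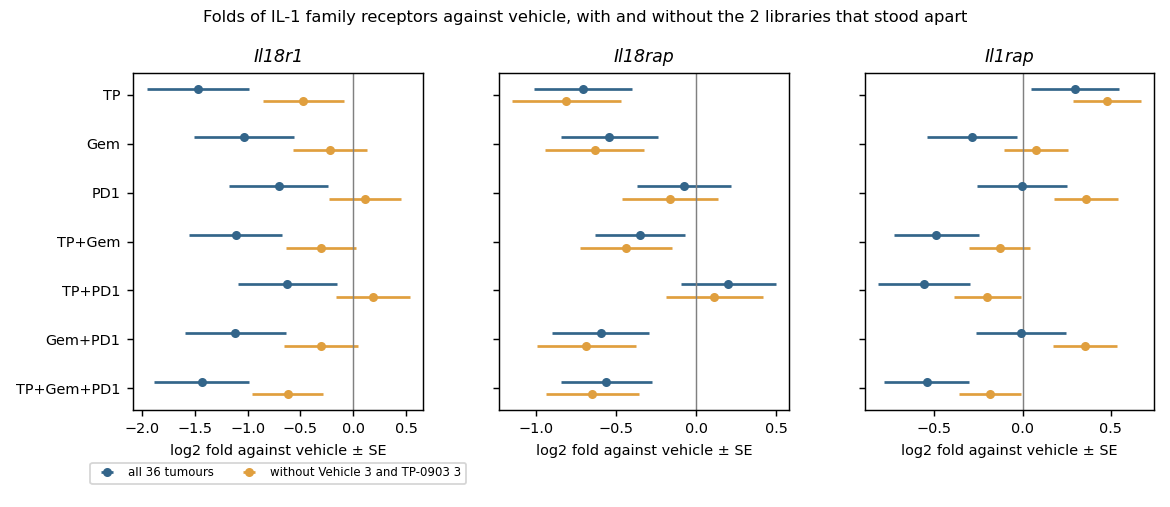
Log2 folds of Il18r1, Il18rap and Il1rap in each treated arm against Vehicle, with bars of 1 SE, from all 36 tumours (blue) and without Vehicle replicate 3 and TP-0903 replicate 3 (orange). For Il18r1 every orange point lies to the right of its blue point, as with TP-0903 at -1.47 and -0.47, whereas for Il18rap the points stay close together.

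Among the IL-17 family, Il17ra, the shared signalling chain, was above background in all tumours. Its Vehicle values had a lowest of 58.2, a median of 91.6 and a highest of 99.8, and those of TP-0903 were 95.5, 82.0, 187 and 111. The value of 187 came from the library with liver RNA. The log2 fold was 0.50 ± 0.24 (adjusted p = 0.321), and 0.22 ± 0.24 (adjusted p = 0.863) without the 2 libraries.

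Il17rb, the receptor for Il25 and Il17b, was at 13.0, 21.5, 114 and 20.0 in TP-0903 and between 18.2 and 26.3 in Vehicle, with a median of 21.2. The single high value was again TP-0903 replicate 3. The log2 fold of 0.88 ± 0.42 (adjusted p = 0.315) became -0.18 ± 0.35 (adjusted p = 0.943) without the 2 libraries. Averaged over the backgrounds of the other agents, the TP-0903 effect on Il17rb was 0.52 ± 0.23 (adjusted p = 0.357), and 0.25 ± 0.17 (adjusted p = 0.734) without them.

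The ligand Il17b had values of 24.9, 28.9, 27.6, 28.4 and 17.6 in TP-0903+Gemcitabine and a lowest of 9.48, a median of 15.5 and a highest of 23.2 in Vehicle. The log2 fold was 0.65 ± 0.24 with an adjusted p of 0.218. Scaled thresholds were also higher in that arm, at 18.5 to 33.965 against 14.4 to 22.6 in Vehicle, and only 2 of the 5 tumours were above background. Scaled by positive controls the fold was 0.00 ± 0.22 (adjusted p = 0.990). Il13, a type 2 ligand, had the same features there. It was above background in none of the 6 Vehicle tumours and in 2 of the 5 TP-0903+Gemcitabine tumours, at 18.9, 17.1, 44.5, 19.7 and 14.2. Its log2 fold, between values mostly below background, was 0.68 ± 0.26 (adjusted p = 0.232), and 0.32 without TP-0903+Gemcitabine replicate 3, which held the value of 44.5. It turned to -0.04 ± 0.24 under positive-control scaling. The part of the lower housekeeping counts in these differences was not tested beyond these values.

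**Figure D4:**
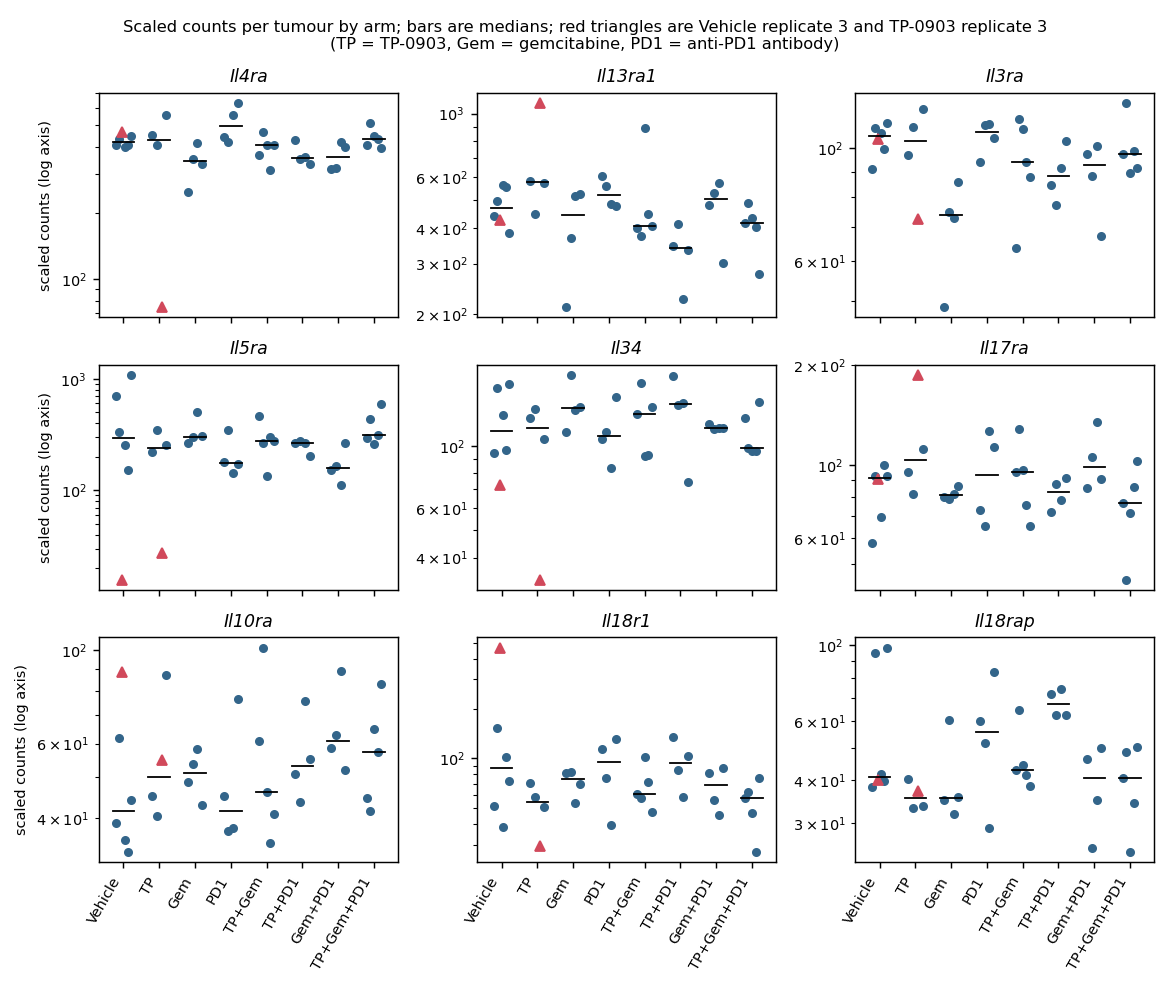
Scaled counts per tumour (log axes, ranges differing between panels) of 9 genes above background in 34 to 36 tumours, by arm, with bars at the medians and triangles for the 2 libraries with lung or liver RNA. The arms overlap in most panels, and the triangles stand apart for Il4ra (74.7), Il13ra1 (1089), Il5ra (15.8 and 27.5), Il34 (33.4), Il17ra (187) and Il18r1 (466).

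Il10ra, the Il10-binding chain found on most leukocytes, ran from 33.3 to 101 and Il22ra1, an epithelial chain of the Il22 receptor, from 25.3 to 68.8, and their arms overlapped. Il34 was at 33.4 in TP-0903 replicate 3 and at 72.7 in Vehicle replicate 3, and at 74.6 to 178 in the 34 other tumours. Il11ra1, the Il11 receptor, ran from 15.8 to 52.7, and Il16 from 11.8 to 80.2. None of these 5 genes had an unadjusted p under 0.05 in any of the 13 comparisons.

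Of the 276 pairs among the 24 genes above background in at least 18 tumours, 202 had a positive Spearman correlation across tumours (73.2%), against 62.6% of the pairs among the 565 panel genes above background as often. The median rho was 0.155 among the 276 pairs and 0.089 among the panel pairs. An adjusted permutation p under 0.05 was reached by 31 of the 276, of which 3 were negative. No such p was computed for the panel pairs, so the 31 cannot be set against a share of them. The negative pairs were those of Il5ra with Il15ra, Il1rap and Il1rl2, at a rho of -0.64, -0.60 and -0.53. The strongest of the 276 was that of Il10ra and Il2rg, with a rho of 0.752 and an r of 0.779. Its permutation p was 1e-05 for both, the smallest that 100000 permutations can give, with adjusted p-values of 0.00069 and 0.00046. Its r was 0.751 without the 2 tumours farthest from the median of Il10ra and 0.877, 0.890 and 0.553 within cartridges 1, 2 and 3. Il10ra and Il21r had a rho of 0.736 and Il21r and Il2rg one of 0.724. For the 3 negative pairs of Il5ra, in the order given, r was -0.732, -0.753 and -0.440. Without the 2 libraries with lung or liver RNA it was -0.545, -0.484 and -0.508. The panel genes most like Il2rg were Ptprc, the common leukocyte antigen, Pik3cd and Selplg, at correlations of 0.833, 0.830 and 0.791 over 36 tumours. Those most like Il10ra were Lcp1, Ncf4 and Selplg, at 0.846, 0.844 and 0.819. Genes near background share the scaled background of their lane, which adds a common component to such correlations.

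No gene of the 31 tested passed the test in any of the 13 comparisons, which were each treated arm against Vehicle, the average effect of each agent, and the interaction of each pair of agents. The test was edgeR's quasi-likelihood test with adjustment over the 683 genes tested. The share of all tested genes called was 4.83% for TP-0903 against Vehicle, 0.439% for TP-0903+Gemcitabine, 0.146% for Gemcitabine+anti-PD1 and 0.878% for the triple arm. It was 0% for Gemcitabine, for Anti-PD1 and for TP-0903+anti-PD1. Among the average effects it was 0% for TP-0903, 0.146% for gemcitabine and 0% for anti-PD1. Among the interactions it was 0% for TP-0903 and gemcitabine, 1.46% for TP-0903 and anti-PD1, and 0% for gemcitabine and anti-PD1. A count of 0 among 31 genes is therefore near the background share in each comparison. At an unadjusted p under 0.05, 29 of the 403 tests of these genes passed (7.2%), against 10.01% of the 8879 tests over all genes. DESeq2 called Il18r1 in TP-0903 and in the triple arm, with adjusted p-values of 0.0498 and 0.0466, and no other gene of the 31, and limma called none.

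The median folds of the 31 genes lay near those of all tested genes. In TP-0903 against Vehicle, 19 folds were positive and 12 negative, with 4 at an unadjusted p under 0.05, and the median log2 fold was 0.10 against 0.06 over all tested genes. In Gemcitabine, 11 were positive and 20 negative, 2 with such a p, and the medians were -0.24 and -0.13. In Anti-PD1, 13 were positive and 18 negative, none with such a p, and the medians were -0.03 and -0.01. TP-0903+anti-PD1 had 16 positive folds, with 1 gene at such a p and medians of 0.01 and -0.04. Gemcitabine+anti-PD1 had 17, with 3 genes at such a p and medians of 0.03 and 0.05. In the triple arm 8 were positive and 23 negative, 2 with such a p, and the medians were -0.11 and -0.08.

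The scaling decided the direction in 1 arm above all. In TP-0903+Gemcitabine, 20 of the 31 folds were positive and 4 had an unadjusted p under 0.05, with a median of 0.12 against 0.07 over all genes. Under positive-control scaling only 2 of the 31 were positive, and the median of all genes was -0.59. TMM scaling gave 16 positive folds and an all-gene median of 0.01. The changes of single genes in that arm are therefore relative to the housekeeping genes.

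The average effects were small. For TP-0903, 18 of the 31 were positive, Il17rb alone had an unadjusted p under 0.05, and effects ran from -0.45 to 0.52. For gemcitabine 12 were positive, and Il18rap and Il15 had such a p, Il15 at 0.26 ± 0.12 (adjusted p = 0.324). For anti-PD1 11 were positive, and Il2ra alone had such a p, at -0.35 ± 0.15 (adjusted p = 0.591), or 0.08 ± 0.48 with cartridge as a block.

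**Figure D5:**
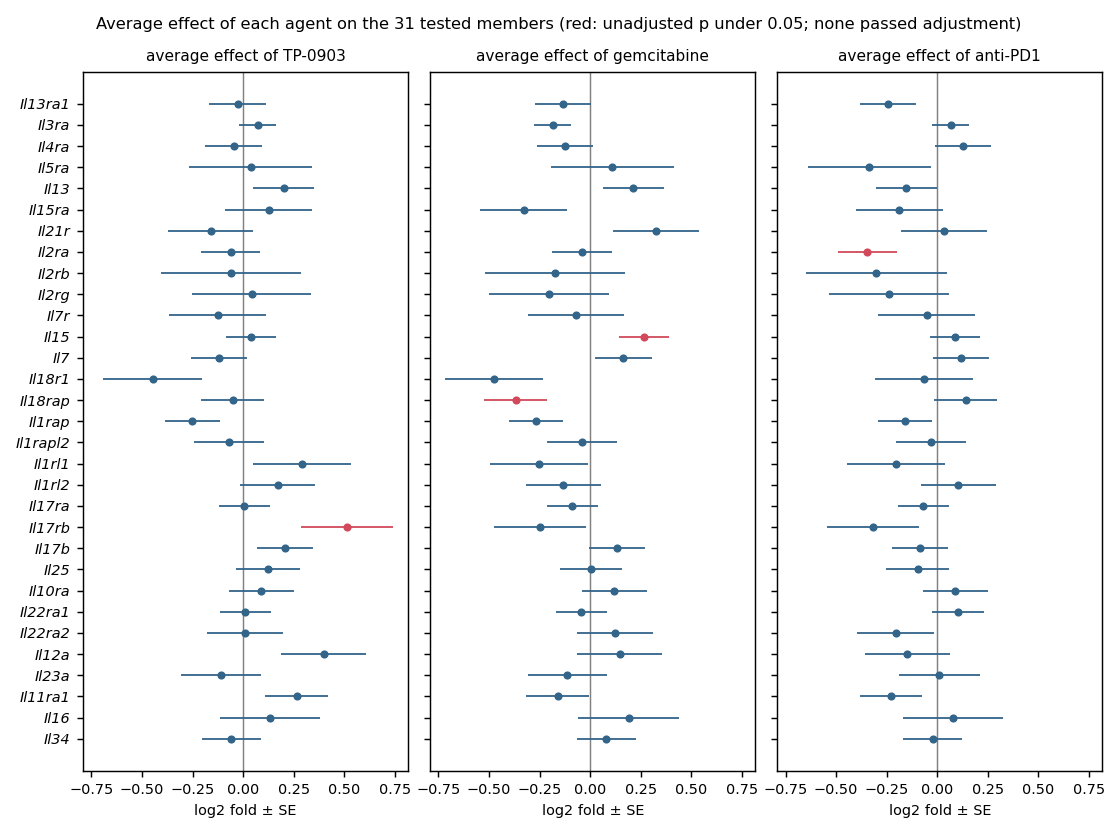
Average log2 effect of TP-0903, gemcitabine and anti-PD1 on the 31 tested genes, with bars of 1 SE, each averaged over the 4 backgrounds of the other agents. All effects lie between -0.48 and 0.52, and the 4 in red had an unadjusted p under 0.05 without passing adjustment.

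The interaction of TP-0903 and anti-PD1 had the most genes at an unadjusted p under 0.05. They were 8 of 31 (25.8%), against 79 of the 683 tested genes (11.6%). None of the 8 was called, against 10 of all 683 genes (1.46%). Of the 31 estimates, 6 were positive and 25 negative with a median of -0.28, and over all genes 220 were positive and 463 negative with a median of -0.19. A negative value means that the difference made by TP-0903 was lower with the antibody than without it. The largest by p was Il2ra, at -0.98 ± 0.29 (adjusted p = 0.0895).

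Il2ra was at 13.7, 18.2, 39.3 and 25.7 in TP-0903 and between 11.5 and 26.3 in Vehicle. With the antibody it was at 15.5, 14.9, 9.27 and 12.03 in TP-0903+anti-PD1 and at 16.8, 15.3, 25.9 and 23.8 in Anti-PD1. It was at 24.1, 31.5, 30.7, 20.8 and 14.2 in TP-0903+Gemcitabine and at 13.9, 12.1, 15.7, 8.59 and 16.4 in the triple arm. The medians of the TP-0903 arms were 21.9 and 24.1 without the antibody and 13.5 and 13.9 with it, and the values overlapped. Il2ra was above background in 17 tumours, in none of the 4 of TP-0903+anti-PD1 and in 1 of the 5 of the triple arm, and in 2 of 4 in TP-0903 and 2 of 5 in TP-0903+Gemcitabine. The value of 39.3 was the library with liver RNA and was not above its own scaled threshold, which was also 39.3, so much of this difference lay near background. With cartridge as a block the interaction was -0.93 ± 0.38 (adjusted p = 0.470), and without the 2 libraries -0.90 ± 0.27 (adjusted p = 0.142). It passed the test without TP-0903 replicate 1 (-1.09, adjusted p = 0.0318) and without TP-0903+Gemcitabine replicate 5 (adjusted p = 0.0431).

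Il13ra1 had an interaction of -0.86 ± 0.28 (adjusted p = 0.131), with medians of 576 in TP-0903 and 468 in Vehicle, and of 340 in TP-0903+anti-PD1 and 522 in Anti-PD1. It was -0.64 ± 0.34 (adjusted p = 0.676) with cartridge as a block. Without the 2 libraries it was -0.68 ± 0.26 (adjusted p = 0.343). The other genes named by the smallest p were Il17ra at -0.65 ± 0.25, Il23a at -0.96 ± 0.39 and Il1rap at -0.59 ± 0.27, with adjusted p-values of 0.250, 0.319 and 0.384. Without the 2 libraries these were -0.52 ± 0.23, -0.85 ± 0.40 and -0.68 ± 0.19, with adjusted p-values of 0.434, 0.466 and 0.124. Without Vehicle replicate 3 alone, the library with lung RNA, the Il1rap interaction was -0.77 ± 0.20 and passed the test (adjusted p = 0.0303). Il23a, a subunit of Il23, was above background in 9 tumours only. Under TMM scaling 10 of the 31 interactions were positive, and under positive-control scaling 19 were, with all-gene medians of 0.00 and 0.14. The TP-0903 and gemcitabine interaction had 17 positive estimates and 1 gene at such a p, and that of gemcitabine and anti-PD1 19 and none.

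The signalling partners of these receptors were a list of 30 genes, of which 25 were on the panel and 24 were tested. They comprise the Jak and Stat proteins, the Socs inhibitors, adaptors such as Myd88 and Traf6 and helper T cell transcription factors. In edgeR's test with housekeeping scaling none of the 24 was called in any comparison, at the background shares given above, and between 0 and 2 had an unadjusted p under 0.05 in each. For the average effect of gemcitabine, DESeq2 called 1 of them (adjusted p = 0.00887), and edgeR called 1 without the 2 libraries with lung or liver RNA (adjusted p = 0.0481). Positive-control scaling called 12 of the 24 in TP-0903+Gemcitabine, where all 24 folds were then negative and the all-gene median was -0.59. The shares of all tested genes called in these alternatives are not given here, so the counts cannot be read as particular to the partners. For the average effect of gemcitabine, 4 of the 24 estimates were positive and 20 negative, with a median of -0.10 against -0.03 over all genes. Stat3, which carries the signals of Il10 and Il22 among others, had an effect of -0.36 ± 0.09 (adjusted p = 0.0613), and Stat5b, which acts below the common gamma chain, one of -0.55 ± 0.18 (adjusted p = 0.141).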

How the data were processed

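RNA of 36 tumours was measured on 750 endogenous and 20 housekeeping genes. The authors deposited a table of whole-number counts. The series' design text mentions normalization to positive controls and housekeeping genes, but 27720 of 27720 values were identical to the deposited raw lane report, so they were used as raw counts. The lane report, per the file headers, mixes these with other values such as lane attributes, and supplied the control probes and cartridges. The software versions behind the files are not given in the sources used here. In 7 lanes the identifier carried a suffix with no stated meaning.

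Groups came from the labels. Genes above background in at least 4 lanes were tested, 683 in all, with 67 left out. Of the 48 genes described, 31 were tested. All 48 matched RefSeq, none under another symbol. The test was edgeR's two-sided quasi-likelihood test with robust dispersions (edgeR 4.0.16, limma 3.58.1, DESeq2 1.42.0, R 4.3.3), with all 8 arms in a single fit, library sizes set to the housekeeping geometric mean and Benjamini-Hochberg adjustment within each of 13 comparisons. Genes with an adjusted p under 0.05 count as called. Folds are log2 with SE. An average effect is the mean of 4 contrasts, and an interaction is averaged over the third agent. The scripts were tested on simulated data.

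Alternatives were TMM and positive-control scaling, DESeq2, limma on log2(scaled count + 1) and after background subtraction, other filters and thresholds, cartridge as a block or only cartridge 1, only the arms compared, and leaving out each tumour or the 2 libraries with lung or liver RNA. Genes named with a fold are those with an unadjusted p under 0.05, at most 5 per comparison, and other values describe genes above background in at least 18 tumours. Stat3 and Stat5b were the partner genes with an unadjusted p under 0.05 among the average effects. The genes, lists and comparisons were chosen with earlier results of these data known. With 4 to 6 tumours per arm and counts near background for many genes, precision was limited by tumour spread and depth.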

Additional observations from a re-analysis of the deposited data

Results flagged for a closer look

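In 12 of 192 groups, formed by the 24 genes above background in at least 18 tumours and the 8 arms, 1 tumour lay far from the others of its arm by Dixon's criterion on log2 scaled counts. Chance alone gives about 1 in 20 such groups. In the libraries with lung or liver RNA, Il1rap was at 128.6 in Vehicle replicate 3 against 34.4 to 56.4 in the other Vehicle tumours, and Il4ra at 74.7 in TP-0903 replicate 3 against 405 to 559. Il13ra1 was at 893.6 in TP-0903+Gemcitabine replicate 3 against 374 to 446.

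In TP-0903+Gemcitabine replicate 2, Il18rap was at 64.4 against 38.5 to 44.5 and Il7r at 49.9 against 25.9 to 27.6. Il2rg was at 49.4 in Anti-PD1 replicate 4 against 12.7 to 13.8, and at 52.9 in TP-0903+anti-PD1 replicate 4 against 20.9 to 23.9. Il1rl2 was at 58.4 in Gemcitabine+anti-PD1 replicate 3 against 28.7 to 31.1. The low values were Il22ra1 at 35.3 in TP-0903 replicate 4 against 42.0 to 43.2, Il22ra1 at 31.8 in TP-0903+Gemcitabine replicate 5 against 44.7 to 51.2, Il5ra at 202.0 in TP-0903+anti-PD1 replicate 4 against 266 to 274, and Il7 at 20.2 in Gemcitabine replicate 4 against 32.8 to 35.6. No interaction among the 31 tested genes passed the test, and none of these values was weighed further.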

How the results depend on the processing

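The number of the 31 genes called stayed at 0 in 596 of 607 alternative results. It was 1 with DESeq2 in TP-0903 and in the triple arm against Vehicle, 4 with positive-control scaling in TP-0903+Gemcitabine against Vehicle (Il18r1, Il18rap, Il1rap and Il3ra), and 1 in that arm with cartridge as a block and without the 2 libraries, an alternative chosen after seeing the data. That gene was Il12a, a subunit of Il12, at 2.05 ± 0.48 (edgeR, adjusted p = 0.0264). Its fold was 0.70 ± 0.36 with all libraries and no block. The shares of all tested genes called in these alternatives are not given here, so the counts cannot be read as particular to the 31 genes. Leaving out each tumour gave 0 to 1 in TP-0903 against Vehicle (Il18r1 without Vehicle replicate 1 or 4, Il1rap without Vehicle replicate 3), in the triple arm (Il18r1 without Vehicle replicate 4) and in the interaction of TP-0903 and anti-PD1 (Il1rap without Vehicle replicate 3, Il2ra without TP-0903 replicate 1 or TP-0903+Gemcitabine replicate 5), and 0 in the other 10 comparisons.

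Of 26 named folds, 18 kept their direction in every alternative run. Il17rb in TP-0903 turned to -0.18 without the 2 libraries, with or without the cartridge block, and ranged from -0.24 (without TP-0903 replicate 3) to 1.20 over single tumours left out. With positive-control scaling Il13 and Il15 in TP-0903+Gemcitabine turned to -0.038 and -0.28. With cartridge as a block, Il18r1 in Gemcitabine+anti-PD1 was at 0.00084 and the anti-PD1 effect on Il2ra at 0.083. With the block and without the 2 libraries, Il18r1 was at 0.10 in TP-0903+Gemcitabine, 0.82 in Gemcitabine+anti-PD1 and 0.50 in the triple arm, Il1rap in the triple arm at 0.11 and the anti-PD1 effect on Il2ra at 0.18. Positive-control scaling moved the median fold of all tested genes by over 0.1 in 10 of the 13 comparisons, most in TP-0903+Gemcitabine (0.07 to -0.59) and in the interaction of TP-0903 and anti-PD1 (-0.19 to 0.14). TMM scaling did so only in the latter (to 0.00). The cause was not tested beyond the values given with each gene.

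The number of genes above background in the triple arm was 28 with a threshold of the mean plus 1 SD and 31 when 1 tumour sufficed. When all tumours of the arm had to pass, it was 11 in Vehicle, 9 in TP-0903, 15 in Gemcitabine, 13 in TP-0903+Gemcitabine and 16 in Gemcitabine+anti-PD1. No paired analysis was possible because the labels give no replicate numbers that link tumours across arms. Values near the threshold of 8.21 to 26.3 counts are limited by depth.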
